A study of Homo sapiens with 6 samples.

Results

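The metallothioneins are the cell's small cysteine-rich metal-binding proteins, and the genes described here are MT1E, MT1F, MT1G, MT1X and MT2A together with MTF1. The set was taken by symbol: the 5 metallothionein genes named for this description, and the gene for their zinc-sensing transcription factor. All 6 were found among the 12982 genes of the deposited table, and all 6 entered the test. Of 15 further metallothionein genes and pseudogenes looked for by symbol, MT1A alone was listed, and its values are given beside those of the others.

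RNA was sequenced from SW480, an established line of human colorectal adenocarcinoma cells. The cells were grown for 24 h with MPM-1, a fluorescent small molecule made as a mitochondrial probe, or with DMSO, the solvent in which it was given. Each treatment had 3 libraries, and the labels describe both groups as the wild-type line in the same medium with fetal bovine serum. The labels name the MPM-1 libraries WT4, and the dose of MPM-1 for this experiment is not given in the sources used here. Both groups are a single cell line, and nothing in the labels says that the 3 libraries of a treatment came from separate cultures. The p-values below therefore measure the spread between these libraries, which may be technical.

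Metallothioneins hold zinc and copper ions in clusters of cysteine sulphurs. In many cell types the genes rise when free zinc or cadmium rises, through MTF1, which senses zinc and binds metal response elements (MREs) in their promoters. Glucocorticoids and oxidants are the other textbook inducers, and the cysteine thiols make the proteins a reservoir of reducing groups. In the colon they are expressed by the epithelium, and SLC30A1, the zinc exporter of the cell membrane, is another classical MTF1 target.

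The coding sequences show how alike the family is and why reads from one gene can resemble another. Below are those of the pair that rose (MT2A and MT1X) and of a pair that fell (MT1E and MT1G), read 5′ to 3′ from GENCODE release 29, with cysteine codons in capitals.
MT2A: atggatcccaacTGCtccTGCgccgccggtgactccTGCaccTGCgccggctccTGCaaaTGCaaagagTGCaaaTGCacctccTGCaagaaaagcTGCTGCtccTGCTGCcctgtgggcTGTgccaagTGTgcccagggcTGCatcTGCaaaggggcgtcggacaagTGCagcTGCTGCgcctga
MT1X: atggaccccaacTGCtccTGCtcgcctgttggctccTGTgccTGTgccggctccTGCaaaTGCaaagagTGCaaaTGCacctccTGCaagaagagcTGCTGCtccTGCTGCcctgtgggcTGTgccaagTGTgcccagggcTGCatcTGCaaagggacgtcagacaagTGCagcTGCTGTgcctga
MT1E: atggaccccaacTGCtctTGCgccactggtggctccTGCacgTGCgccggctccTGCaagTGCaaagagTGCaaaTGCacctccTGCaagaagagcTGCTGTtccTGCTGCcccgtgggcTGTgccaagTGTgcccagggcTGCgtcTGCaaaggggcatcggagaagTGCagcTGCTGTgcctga
MT1G: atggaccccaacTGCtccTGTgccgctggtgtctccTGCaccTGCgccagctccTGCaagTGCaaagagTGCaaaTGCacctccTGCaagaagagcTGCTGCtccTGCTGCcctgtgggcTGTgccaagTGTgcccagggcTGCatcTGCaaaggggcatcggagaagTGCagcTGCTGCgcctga

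Each of these 4, and those of MT1F and MT1A, has 186 bases with the stop codon, and 20 of its 61 other codons are for cysteine. For each gene a single annotated transcript with a complete reading frame was used. It was the one with the most cysteine codons and, among equals, the greatest length. Other transcripts of a gene may differ in these values. Over the 15 pairs of the 6 genes, identity ran from 88.7% (MT1F with MT1X) to 95.2% (MT1G with MT2A). MT2A shared 92.5% of its bases with MT1X, the other gene that rose, and the same 92.5% with MT1E, which fell. Over whole transcripts, 45.1% of the 50-base stretches of MT1X and 20.2% of those of MT1G occurred in another annotated gene, against 3.59% to 5.76% for MT1E, MT1F, MT2A and MT1A. At 100 bases the share was 0.0 for all but MT1X (19.1%), whose only match was AC026461.1, an unlisted transcript that overlaps it on the same strand. Read length, strand setting and the treatment of reads with several matches are not given in the sources used here, so the counts of MT1X and MT1G are the least certain of the set.

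Promoter windows were at hand for MT2A, MT1X and MTF1, in the RefSeq table of 35116 promoters on GRCh38.p14; MT1E, MT1F, MT1G and MT1A are not in that table. In the 250 bases before the start, MT2A held 7 cores of the metal response element (TGCACNC or TGCGCNC, either strand), a number reached by 0.0313% of all promoters. MT1X held 4, a number reached by 0.37%. Starts here are those of RefSeq: that of MT2A lies downstream of the GENCODE gene start given below, so its matches lie inside the GENCODE gene, whereas the matches of MT1X lie before its GENCODE start. MTF1 held 0, whereas 24.8% of promoters held at least 1. The antioxidant response element TGACNNNGC, again on either strand, occurred 1 time in MT2A and 1 time in MT1X, against 10.9% of promoters with at least 1, and no 2 of these matches overlapped. For MT2A and MT1X the 3 MRE cores nearest the start and the antioxidant match are shown, with the searched letters in capitals and up to 7 bases on each side, all on chromosome 16 and the plus strand. A match is a description of the letters and not evidence of binding. The label antioxidant element means a match to TGACNNNGC alone, which does not tell it from other elements that share these letters.
MT2A, MRE core, bases -8 to -2, chr16:56608569-56608583: gccgcgcTGCACTCc
MT2A, MRE core, bases -54 to -48, chr16:56608523-56608543: gggctttTGCACTCgtcccgg
MT2A, MRE core on the opposite strand, bases -88 to -82, chr16:56608489-56608509: gcggggcGTGTGCAggcagcg
MT2A, antioxidant element, bases -104 to -96, chr16:56608473-56608495: ccgcaagTGACTCAGCgcggggc
MT1X, MRE core, bases -53 to -47, chr16:56682410-56682430: gggcctcTGCGCCCggccctc
MT1X, MRE core on the opposite strand, bases -78 to -72, chr16:56682385-56682405: caggggcGGGTGCAaggacga
MT1X, MRE core, bases -122 to -116, chr16:56682341-56682361: gggttgcTGCACCCggcccag
MT1X, antioxidant element on the opposite strand, bases -243 to -235, chr16:56682220-56682242: gaggcagGCAATGTCAgggaaat

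The libraries held 32095456 to 40269820 counts with DMSO and 31733667 to 35403841 with MPM-1, so that a count of 0 would allow up to 0.0695 to 0.0985 CPM. CPM values adjust counts for library size with edgeR's TMM factors, and FPKM, the authors' own scale, also divides by length and serves to compare genes. Such limits cover counting error only, since reads were counted and not molecules. Of 10 epithelial markers looked for, 9 were measured, with EPCAM at a mean of 676 CPM in each group. Of 7 fibroblast markers 2 were measured (COL1A1 and PDGFRB), of 4 endothelial markers 0, and of 7 immune markers 2 (CD14 and CD68), while PTPRC, the pan-leukocyte marker, was not listed. Of the epithelial markers 4 were higher (KRT8, KRT18, KRT19 and CDH1) and 4 lower, the intestinal genes CDX2, KRT20, CDX1 and VIL1 with log2 fold changes of -2.20, -2.03, -0.98 and -0.88. By the same test, described below, 27.7% of all genes were higher and 28.8% lower. The summed level per library ran from 8364 to 9748 CPM with DMSO and from 12227 to 13761 with MPM-1 for the epithelial markers. That sum was mostly KRT8, KRT18 and KRT19. For the fibroblast markers it ran from 4.79 to 5.47 CPM with DMSO and from 2.00 to 2.89 with MPM-1. For the immune markers it ran from 67.2 to 94.6 CPM with DMSO and from 141 to 155 with MPM-1. The immune sum was mostly CD68, while CD14 fell from 9.38 ± 0.646 to 3.70 ± 1.49 CPM (SD, n = 3 each). The part of these shifts in the results below was not tested. MPM-1 replicate 1 stood apart in some genes: it held 4885 counts of HSPA1A, the inducible heat shock chaperone, where MPM-1 replicates 2 and 3 held 483 and 1120. The same library was the highest for PER1, a clock gene of the glucocorticoid-responsive list below, at 198 CPM against 58.5 and 93.6. Values without that library are therefore given where they matter.

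In SW480 cells with MPM-1 the metallothionein genes moved in opposite directions. MT2A, the most abundant, rose 1.79-fold and MT1X 2.12-fold. MT1E, the second most abundant, fell 1.93-fold and MT1G, the least abundant, 7.12-fold. MT1F, at a log2 fold change of -0.35, and MTF1, at -0.13, did not pass the test. A gene passed where its p in edgeR's quasi-likelihood test, adjusted by Benjamini-Hochberg over all 12982 genes, was under 0.05. By that rule 2 of the 5 metallothioneins were higher and 2 lower. A stricter rule, which also asks for an adjusted p under 0.01 and an absolute log2 fold change no smaller than 1, defines a DEG, and under it 1 was higher (MT1X) and 1 lower (MT1G).

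These shares have to be read against a table in which much changed. Of all genes tested, 56.5% passed, 27.7% as higher and 28.8% as lower, and 14.3% were DEGs, 5.58% higher and 8.75% lower. The 3 MPM-1 libraries lay wholly above or wholly below the 3 DMSO libraries in 5 of 5 metallothioneins and in 64.3% of all genes. They lay above in 2 of the 5 (MT2A and MT1X) and in 31% of all genes, and below in the other 3 and in 33.3% of all genes. The median log2 fold change was -0.35 over the 5 metallothioneins and -0.026 over all genes. A gene's level in these bulk samples is a sum over cells, so fewer expressing cells and less RNA in each cannot be told apart.

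**Figure D1:**
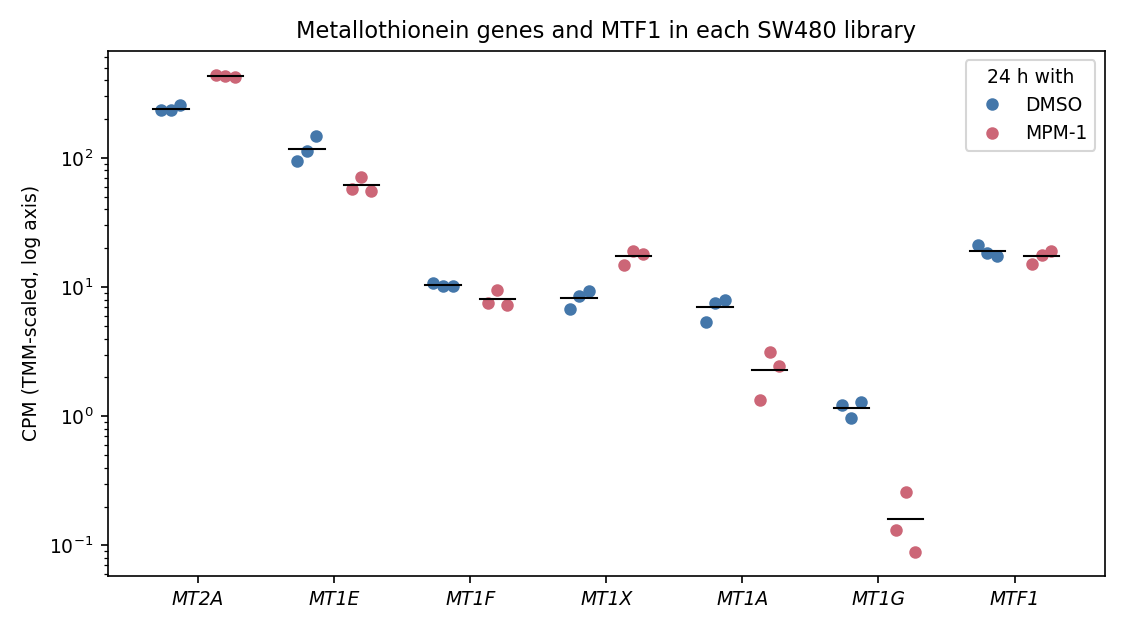
CPM (after TMM scaling, log axis) of the 5 metallothionein members, of MT1A and of MTF1 in each of 3 DMSO and 3 MPM-1 libraries, with points for libraries and black lines for group means. MT2A and MT1X are higher in every MPM-1 library, MT1E, MT1F, MT1A and MT1G lower in every one, and MTF1 overlaps.

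MT2A (ENSG00000125148) lies at chromosome 16, 56608199 to 56609497 on the plus strand of GRCh38, and encodes metallothionein 2. It was read at 7696, 10100 and 10221 counts in DMSO replicates 1 to 3 and at 13457, 13226 and 14198 in MPM-1 replicates 1 to 3. In CPM these were 233, 234 and 257 with DMSO and 442, 430 and 423 with MPM-1. The MPM-1 libraries lay close together and well clear of the DMSO libraries. The means were 241 ± 13.3 and 432 ± 9.51 CPM (SD, n = 3 each), for a log2 fold change of 0.84 (standard error 0.071, 95% interval 0.68 to 1.00, edgeR quasi-likelihood adjusted p = 1.39e-05). In the authors' FPKM, MT2A went from 314 ± 20.7 to 506 ± 10.4, the highest level of the family in both groups. Without MPM-1 replicate 1 its log2 fold change was 0.84.

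MT1X (ENSG00000187193; chromosome 16, 56682424 to 56684196, plus strand) is one of the metallothionein 1 genes and sits at the far end of the cluster from MT2A. It had 222, 369 and 369 counts with DMSO and 450, 589 and 607 with MPM-1, or 6.73, 8.54 and 9.26 CPM against 14.8, 19.2 and 18.1. The lowest MPM-1 library was thus above the highest DMSO library. The means were 8.18 ± 1.30 and 17.3 ± 2.28 CPM (SD, n = 3 each), for a log2 fold change of 1.08 (standard error 0.17, 95% interval 0.70 to 1.46, edgeR quasi-likelihood adjusted p = 0.000505). On the FPKM scale its level went from 18.0 ± 3.38 to 33.8 ± 5.70, far below MT2A. Its counts may include reads of the overlapping AC026461.1, whose share is unknown.

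MT1E (ENSG00000169715; chromosome 16, 56625475 to 56627112, plus strand) is the next metallothionein after MT2A among those in the table, in the same orientation. Its counts were 3121, 4873 and 5839 with DMSO and 1740, 2173 and 1877 with MPM-1. In CPM these were 94.6, 113 and 147 against 57.1, 70.7 and 55.9, and DMSO replicate 3 was the highest of the 6 libraries. The DMSO libraries were spread more widely than those of MPM-1, without overlap. From 118 ± 26.4 to 61.2 ± 8.19 CPM (SD, n = 3 each), the log2 fold change was -0.95 (standard error 0.16, 95% interval -1.30 to -0.60, edgeR quasi-likelihood adjusted p = 0.000677). The FPKM level fell from 171 ± 40.8 to 80.0 ± 12.0, second to MT2A in both groups.

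MT1G (ENSG00000125144; chromosome 16, 56666731 to 56668065) is the only one of the 6 cluster genes in the table that runs on the minus strand. It was rare in these cells, with 40, 42 and 51 counts with DMSO and 4, 8 and 3 with MPM-1. The CPM were 1.21, 0.973 and 1.28 against 0.131, 0.260 and 0.0893, and MPM-1 replicate 3 was at the level that a count of 0 would still allow. All 3 MPM-1 libraries lay below every DMSO library. From 1.16 ± 0.162 to 0.160 ± 0.0890 CPM (SD, n = 3 each), the log2 fold change was -2.83 (standard error 0.48, 95% interval -3.90 to -1.76, edgeR quasi-likelihood adjusted p = 0.000786), the largest and also the least precise of the family.

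MT1F (ENSG00000198417; chromosome 16, 56657694 to 56660698, plus strand) was the member nearest to the threshold. Its counts were 352, 443 and 408 with DMSO and 229, 294 and 246 with MPM-1. The CPM were 10.7, 10.3 and 10.2 against 7.52, 9.56 and 7.33, so MPM-1 replicate 2 lay close under the DMSO libraries and the other MPM-1 libraries further below. The means were 10.4 ± 0.244 and 8.13 ± 1.24 CPM (SD, n = 3 each), for a log2 fold change of -0.35 (standard error 0.16, 95% interval -0.71 to 0.0076, edgeR quasi-likelihood adjusted p = 0.0873). The call turned on the scaling and on 1 library: the log2 fold change was -0.50 with scaling by library size alone (adjusted p = 0.0289) and -0.46 without MPM-1 replicate 2 (adjusted p = 0.0381), both in edgeR's quasi-likelihood test.

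MTF1 (ENSG00000188786), the zinc-sensing activator of the family, lies on another chromosome (chromosome 1, 37809567 to 37859620, minus strand). Its CPM were 21.0, 18.3 and 17.4 with DMSO and 15.0, 17.8 and 19.1 with MPM-1, from 458 to 792 counts a library. The groups overlapped, and MPM-1 replicate 1 was the lowest library. The means were 18.9 ± 1.87 and 17.3 ± 2.08 CPM (SD, n = 3 each), for a log2 fold change of -0.13 (standard error 0.13, 95% interval -0.43 to 0.17, edgeR quasi-likelihood adjusted p = 0.430). That interval leaves room for a fall to the size of MT1F's value but not for a change of the size seen in MT2A, MT1X, MT1E or MT1G. An mRNA level says nothing of the protein's zinc binding or its place in the cell. Its FPKM level of 2.42 ± 0.195 with DMSO and 1.99 ± 0.263 with MPM-1 was far below those of MT2A and MT1E.

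MT1A (ENSG00000205362; chromosome 16, 56638666 to 56640087, plus strand), the further metallothionein in the table, was among the genes that fell. It had 177, 326 and 317 counts with DMSO and 41, 96 and 82 with MPM-1, or 5.37, 7.55 and 7.96 CPM against 1.35, 3.12 and 2.44. No MPM-1 library reached the lowest DMSO library. From 6.96 ± 1.39 to 2.30 ± 0.896 CPM (SD, n = 3 each), it fell 3.02-fold, a log2 fold change of -1.59 (standard error 0.31, edgeR quasi-likelihood adjusted p = 0.00178).

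Length-scaled levels give the order of the genes. With DMSO it was MT2A (314 FPKM), MT1E (171), MT1X (18.0 ± 3.38), MT1A (17.9 ± 3.91), MT1F (15.4 ± 0.132), MT1G (2.85 ± 0.397) and MTF1 (2.42 ± 0.195). The neighbours MT1X, MT1A and MT1F were within their spread of one another, as were MT1G and MTF1. With MPM-1 the order was MT2A (506), MT1E (80.0), MT1X (33.8 ± 5.70), MT1F (10.9 ± 1.84), MT1A (5.34 ± 2.15), MTF1 (1.99 ± 0.263) and MT1G (0.297 ± 0.221). MT1X now stood clear of MT1F and MT1A.

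The sum of the 6 metallothionein genes (the 5 members and MT1A) was higher in every MPM-1 library, by a smaller log2 ratio than MT2A or MT1X. It was 476, 530 and 611 FPKM with DMSO and 623, 668 and 618 FPKM with MPM-1, so the lowest MPM-1 library lay just above the highest DMSO library. The means were 539 ± 67.9 and 636 ± 27.4 FPKM (SD, n = 3 each), a log2 ratio of 0.24. In CPM, without division by length, they were 386 ± 41.3 and 521 ± 13.2, a log2 ratio of 0.43. The exact permutation p was 0.1 on either scale (two-sided), the smallest that this test can give with 3 libraries against 3, so it cannot reach 0.05 here.

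Within that sum the makeup shifted towards MT2A. MT2A made up 58.6% ± 3.61 of the family's FPKM with DMSO and 79.6% ± 2.37 with MPM-1 (SD, n = 3 each), while MT1E went from 31.4% ± 3.54 to 12.5% ± 1.32. MT1X went from 3.33% ± 0.330 to 5.31% ± 0.767 and MT1F from 2.89% ± 0.369 to 1.71% ± 0.210. MT1A went from 3.30% ± 0.445 to 0.834% ± 0.310 and MT1G from 0.532% ± 0.0817 to 0.0458% ± 0.0321. The shares of 1 library sum to the whole, so they are not independent of one another.

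**Figure D2:**
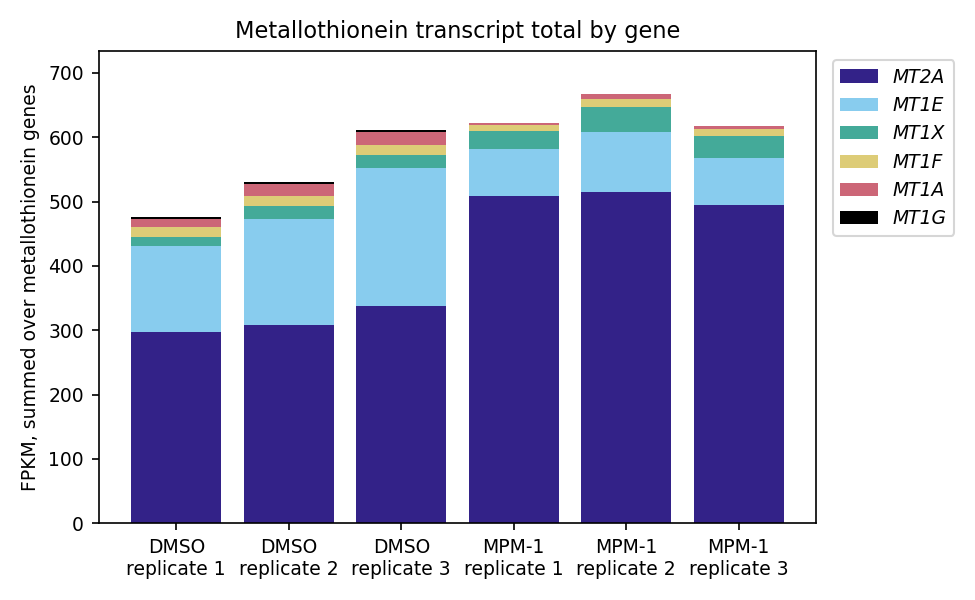
FPKM (the authors' length-scaled values) of 6 metallothionein genes stacked for each of 3 DMSO and 3 MPM-1 libraries. The totals run from 476 to 611 with DMSO and from 618 to 668 with MPM-1, with a larger MT2A segment and a smaller MT1E segment in every MPM-1 library.

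Ratios of 2 genes within a library, which need no scaling between libraries, were also taken, for genes chosen after their values were seen. Per count of MT2A there were 0.406, 0.482 and 0.571 counts of MT1E with DMSO and 0.129, 0.164 and 0.132 with MPM-1. The ratio was thus lower in every MPM-1 library, with means of 0.486 ± 0.0829 and 0.142 ± 0.0194 (SD, n = 3 each; exact two-sided permutation p = 0.1, the smallest possible). MT1X per MT1E went from 0.0700 ± 0.00634 to 0.284 ± 0.0344, and MT1F per MT2A from 0.0432 ± 0.00297 to 0.0189 ± 0.00292, again without overlap (exact permutation p = 0.1 each). For the 2 genes that rose, MT1X per MT2A was 0.0338 ± 0.00432 with DMSO and 0.0402 ± 0.00596 with MPM-1, with overlapping libraries (exact permutation p = 0.3). Over the 5 ratios computed, which include MT1A per MT2A, the Benjamini-Hochberg adjusted exact p was 0.125 for 4 and 0.3 for MT1X per MT2A. A ratio of this kind shows unequal change and not which of the genes moved.

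The 6 metallothionein genes lie in 1 cluster of 76.0 kb on chromosome 16, and the direction of change differed along it. Starts were at 0 kb for MT2A, 17.3 kb for MT1E, 30.5 kb for MT1A, 49.5 kb for MT1F, 58.5 kb for MT1G and 74.2 kb for MT1X, counted from the start of MT2A. The genes that rose were those at the ends, MT2A and MT1X, and the genes between them fell or, for MT1F, did not pass. This order was noticed after the values were seen and was not tested.

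The genes within 500 kb beyond the MT1X end of the cluster, a window chosen after the data were seen, are given for their position alone. Of 5 such genes in the table, 2 were higher, 1 lower and 2 did not pass, a share near the 56.5% of all genes that passed. HERPUD1, an endoplasmic reticulum protein of the unfolded protein response, had the largest rise, from 190 ± 27.1 to 854 ± 146 CPM (SD, n = 3 each; log2 fold change 2.17, edgeR quasi-likelihood adjusted p = 3.25e-06). NLRC5, an activator of MHC class I genes, rose by a log2 fold change of 0.90. NUP93, a nuclear pore protein and the nearest measured gene beyond MT1X, had a log2 fold change of -0.72. CPNE2 and FAM192A, at -0.18 and 0.16, did not pass.

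**Figure D3:**
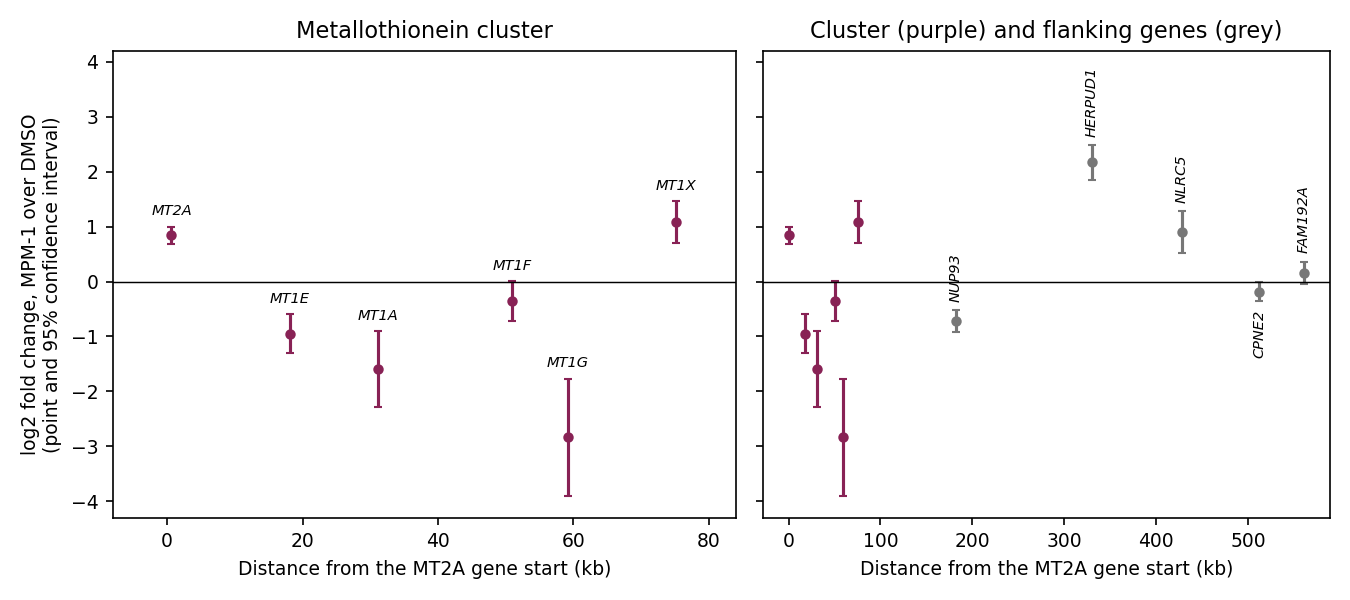
Log2 fold change of MPM-1 over DMSO (points, with 95% confidence intervals from edgeR's quasi-likelihood fit) against distance from the MT2A start in kb, for the 6 metallothionein genes of the cluster (left) and with the 5 measured genes within 500 kb beyond MT1X (right, grey). MT2A and MT1X at the ends are above 0 and MT1E, MT1A and MT1G between them below it, while the interval of MT1F reaches 0.

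Over the 6 libraries, the profiles of MT2A and MT1X were the most alike among the metallothioneins. Likeness was taken as the root-mean-square difference of log2 CPM, each gene centred on its own mean, and it is a description over 6 libraries of 2 treatments. It was 0.21 between MT2A and MT1X, 0.35 between MT1E and MT1F, 0.46 between MT1E and MT1A and 0.90 between MT2A and MT1E. The largest difference was between MT1G and MT1X, at 1.85. Among the 9237 genes whose mean reached 10 CPM, the 5 nearest to MT2A were RMC1 (0.028), STRN (0.038), ATP2B1 (0.047), FNDC3A (0.049) and ANAPC16 (0.049). Each of these has a log2 fold change between 0.78 and 0.86, near that of MT2A.

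The transporters that set cellular zinc, next to the metallothioneins that buffer it, were taken as 2 families, the exporters SLC30 and the importers SLC39. Of 10 exporters 6 were measured, of which 2 were higher and 1 lower, with a median log2 fold change of 0.11. Of 14 importers 11 were measured, of which 3 were higher and 3 lower, with a median of -0.038. Of all genes, 27.7% were higher and 28.8% lower. Neither family held a DEG, where 14.3% of all genes were DEGs, and both medians lie near the -0.026 of all genes.

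SLC30A1, the plasma membrane zinc exporter and a classical MTF1 target, was named after its values were seen. It stood at 53.2, 55.5 and 61.5 CPM with DMSO and 62.9, 45.2 and 61.7 with MPM-1. The groups overlapped throughout, at means of 56.8 ± 4.29 and 56.6 ± 9.88 CPM (SD, n = 3 each; log2 fold change -0.0037, edgeR quasi-likelihood adjusted p = 0.984). Its 95% interval of -0.28 to 0.28 holds neither the rise of MT2A nor that of MT1X. The part of MTF1 in any of these values was not tested. Among the exporters that passed, SLC30A7 and SLC30A9 had log2 fold changes of 0.42 and 0.23, and SLC30A4, an exporter of endosomal compartments, one of -0.68 (edgeR quasi-likelihood adjusted p = 0.00435, 0.0387 and 0.0169).

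Among the importers, SLC39A14, which also carries iron, had a log2 fold change of 0.50, SLC39A6 of 0.37 and SLC39A7, which releases zinc from the endoplasmic reticulum, of 0.25. SLC39A10, a plasma membrane importer, had the largest fall, from 78.6, 89.5 and 83.7 CPM with DMSO to 50.5, 47.8 and 48.3 with MPM-1. Its log2 fold change was -0.78 (edgeR quasi-likelihood adjusted p = 3.64e-05), and the libraries did not overlap. SLC39A11 and SLC39A3 followed at -0.54 and -0.52. Most of these shifts are small, and over both families 5 higher and 4 lower genes became 2 and 7 with scaling by library size alone. The higher count was 3 without DMSO replicate 3, MPM-1 replicate 1 or MPM-1 replicate 3, and the lower count was 2 without DMSO replicate 1.

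Copper is the other metal that metallothioneins bind. Of 17 genes of copper handling 15 were measured, 2 of them higher and 10 lower, where 27.7% and 28.8% of all genes were, with a median log2 fold change of -0.43 against -0.026 over all genes. With 1 library left out the lower count ran from 7 to 9, and it was 7 without MPM-1 replicate 1. SLC31A1, the high-affinity copper importer, went from 100, 76.1 and 73.9 CPM to 150, 139 and 140 CPM. All MPM-1 libraries were above all DMSO libraries, for a log2 fold change of 0.78 (edgeR quasi-likelihood adjusted p = 0.000389). COMMD1, which takes part in copper export and protein traffic, had 0.86 (adjusted p = 0.000309, edgeR quasi-likelihood).

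The copper genes that fell include proteins that use or deliver the metal inside the cell. STEAP3, a reductase of iron and copper, had a log2 fold change of -0.76, and SCO2 and SCO1, which bring copper to cytochrome oxidase, had -0.69 and -0.66 (edgeR quasi-likelihood adjusted p = 0.000431, 0.00690 and 0.000592). The other 7 that fell lay between -0.64 (COX17) and -0.36 (CCS). The copper-exporting ATPases ATP7A and ATP7B were named after their values were seen. ATP7A did not pass at 0.091, while ATP7B, among those that fell, had a log2 fold change of -0.41 (edgeR quasi-likelihood adjusted p = 0.0341). None of the 15 was a DEG in either direction, where 14.3% of all genes were DEGs.

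**Figure D4:**
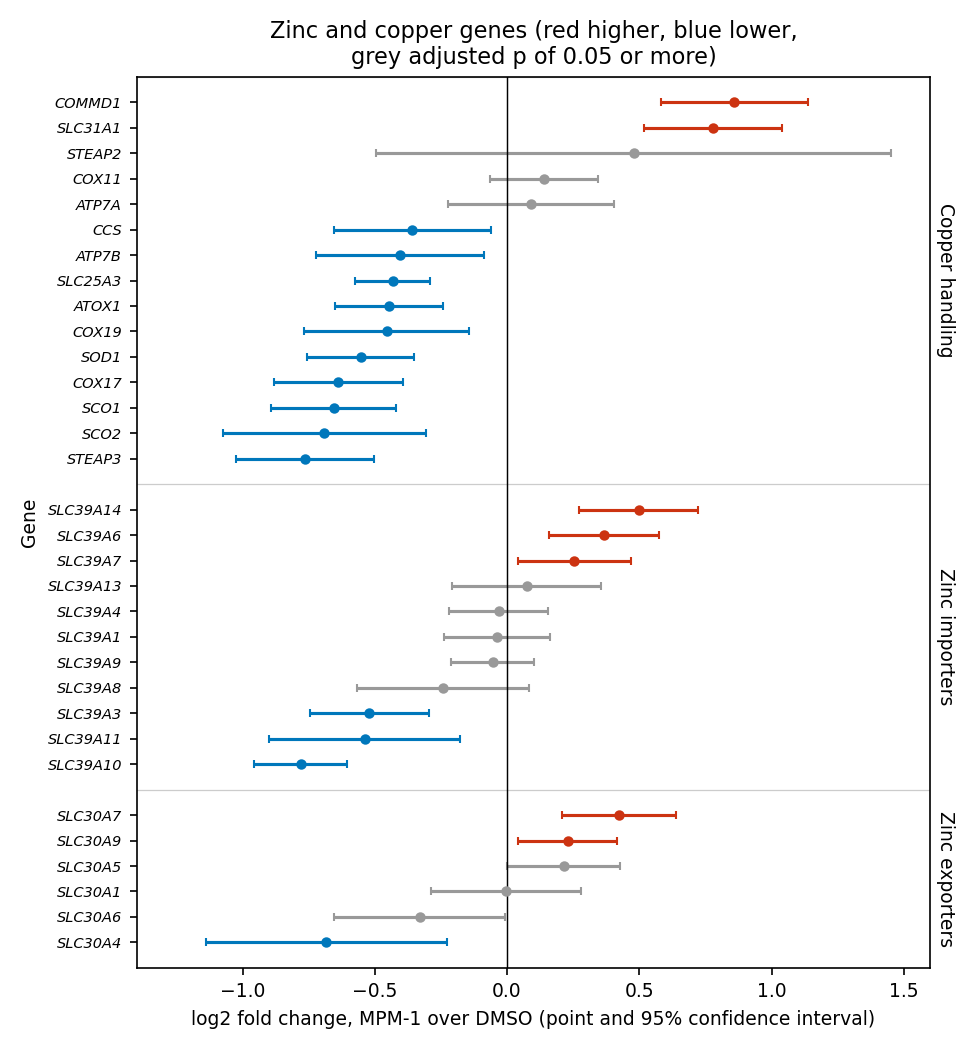
Log2 fold change of MPM-1 over DMSO with 95% confidence intervals for 15 copper-handling genes, 11 zinc importers and 6 zinc exporters, coloured by whether the adjusted p was under 0.05. The copper genes lie mostly below 0, with 10 lower and 2 higher, and the zinc families lie on both sides.

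The other textbook inducers were followed through their own target genes. Of 12 glucocorticoid-responsive genes 8 were measured, with 6 higher (and also 6 without MPM-1 replicate 1), 1 lower and a median log2 fold change of 1.46, beside 27.7% higher and 28.8% lower of all genes and their median of -0.026. TSC22D3, an anti-inflammatory leucine zipper protein, stood at 12.1, 11.4 and 13.6 CPM with DMSO and 49.2, 33.9 and 43.7 with MPM-1, a log2 fold change of 1.77 (edgeR quasi-likelihood adjusted p = 1.11e-05). The genes DUSP1 and DDIT4, at 3.07 and 1.93, were the largest rises. FKBP5, the receptor's co-chaperone, moved the other way, from 26.9 ± 3.05 to 19.6 ± 2.56 CPM (SD, n = 3 each; log2 fold change -0.46, edgeR quasi-likelihood adjusted p = 0.0131), a call lost without DMSO replicate 2 or without MPM-1 replicate 3. Members of the list respond to other signals too.

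Of 12 genes of metal and oxidant stress, all measured, 8 were higher and 0 lower by edgeR's quasi-likelihood test, with a median log2 fold change of 0.54, beside the same 27.7%, 28.8% and -0.026 for all genes. SQSTM1, an autophagy receptor, rose by a log2 fold change of 1.92, SLC7A11, the cystine importer, by 1.74 and SRXN1, sulfiredoxin, by 1.26 (edgeR quasi-likelihood adjusted p = 6.58e-07, 8.42e-07 and 2.58e-06). SLC7A11 was read at 57.8, 65.1 and 64.8 CPM with DMSO and 200, 231 and 198 with MPM-1, well apart. HMOX1, heme oxygenase 1, which heavy metals strongly induce, was named after its values were seen and stayed within its spread, at 12.7 ± 1.73 and 12.9 ± 1.29 CPM (SD, n = 3 each; log2 fold change 0.014, edgeR quasi-likelihood adjusted p = 0.946). The part of metals or oxidants in any of these values was not tested.

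In that list HSPA1A and HSPA1B differed between 1 MPM-1 library and the others. HSPA1A was at 77.7, 66.7 and 57.0 CPM with DMSO and at 160, 15.7 and 33.4 with MPM-1, so that MPM-1 replicate 1 lay above every DMSO library and the others below. HSPA1B divided likewise, at 144, 121 and 104 CPM against 296, 41.9 and 65.0. The heat shock genes DNAJB1 and HSPH1, named after their values were seen, did not. DNAJB1 was at 109, 97.4 and 97.5 CPM with DMSO and 254, 108 and 128 with MPM-1. HSPH1 was at 173, 164 and 155 CPM with DMSO and 253, 176 and 187 with MPM-1. Without MPM-1 replicate 1 the list had 7 higher and 2 lower genes in place of 8 and 0. The metallothioneins did not divide as HSPA1A and HSPA1B did. Without that library MT2A, MT1X, MT1E and MT1G had log2 fold changes of 0.84, 1.20, -0.89 and -2.71, each still passing in edgeR's quasi-likelihood test.

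**Figure D5:**
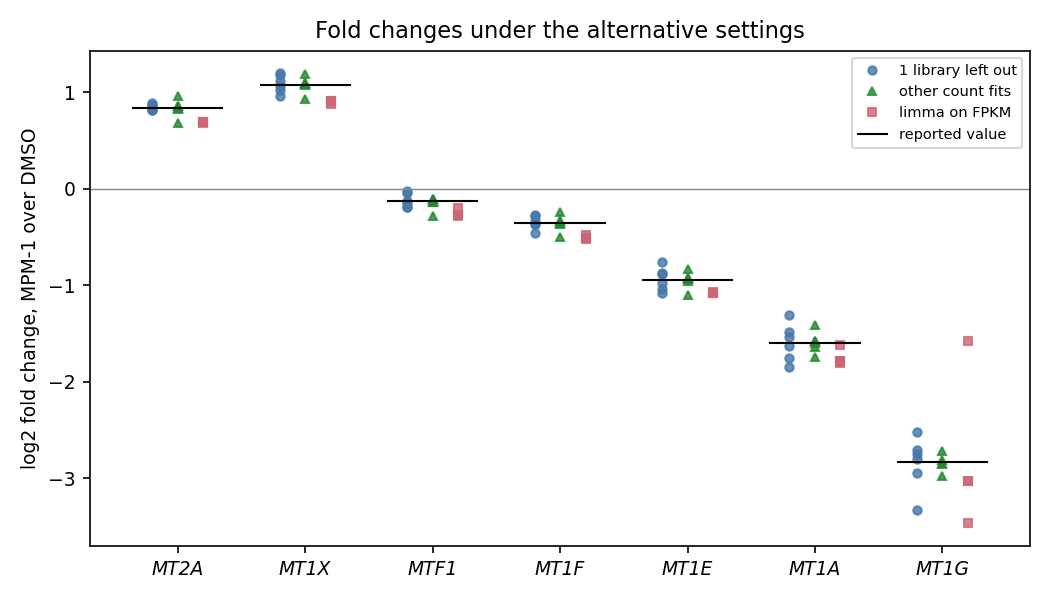
Log2 fold change of MPM-1 over DMSO for each metallothionein and MTF1 under every alternative setting, as points for fits without 1 library, for other count fits and for limma on FPKM, with black lines for the reported values. MT2A and MT1X stay above 0 and MT1E, MT1A and MT1G below -0.5 in all of them. MT1F and MTF1 also stay below 0, with MTF1 between -0.28 and -0.021.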

How the data were processed

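The authors deposited 1 table with the count of each gene in each of 6 libraries (whole numbers, not normalized) and its FPKM, scaled by the authors for length and library size. Their deposited FDR and log2 fold change columns for the same comparison were not used. The submitters' notes name HISAT2, DESeq2 and the mouse build mm10, although the identifiers are human, and the counting and annotation are not given in the sources used here. Groups came from the sample labels. No library was left out, and the chi-square per gene between replicates was 15.4 to 33.2, so no library was a copy of another.

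Counts were tested with edgeR 4.0.16 (R 4.3.3; quasi-likelihood, TMM scaling, Benjamini-Hochberg adjustment over 12982 genes, no covariates). No gene was filtered, since the lowest total was 115 counts. The test was run on simulated counts with a common dispersion and a far smaller share of changed genes than here. That was a check of the code and does not measure error rates in these data. Alternatives were DESeq2 1.42.0 (its size factors and its test), library-size scaling, a mean of at least 50 counts, a replicate block, leaving out each library, an offset for transcript length (loess span 0.3), the DEG rule, and limma 3.58.1 on log2(FPKM + 0.1, 1 or 0.01) for genes whose mean reached 1 FPKM or for all genes, where folds are on the scale of log2(FPKM + pseudocount), which with the pseudocount of 1 understates changes of low genes. Coordinates and coding sequences are from GENCODE release 29 on GRCh38, which holds 12127 of the table's identifiers. The other 855 genes of the table carry no Ensembl identifier.

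The members, the gene lists and the tests were chosen with earlier results of these data known. The genes named are all members, any further metallothionein in the table, up to 3 largest rises and falls among genes that passed in each list, and the 5 genes nearest MT2A in profile. Others are marked in the text as chosen after their values were seen. Genes on the MT2A side of the cluster are not reported here.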

Additional observations from a re-analysis of the deposited data

How the results depend on the processing

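MT2A (0.69 to 0.96), MT1X (0.88 to 1.20), MT1E (-1.10 to -0.76), MT1G (-3.47 to -1.58) and MT1A (-1.85 to -1.31) kept their direction and passed under every alternative that gave a value, and MTF1 (-0.28 to -0.021) passed under none. The highest adjusted p among them was 0.000189 for MT2A, 0.00270 for MT1X, 0.00496 for MT1E and 0.00427 for MT1G, over edgeR, DESeq2 and limma fits. With 1 library left out, MT1G ran from -3.33 to -2.52. With a mean of at least 50 counts MT1G is not tested, leaving 1 lower metallothionein. MT1F, at -0.35, passed at -0.50 with scaling by library size alone and at -0.51, -0.48 and -0.52 with limma on log2(FPKM + 0.1, 1 and 0.01), and at -0.51 without the filter; these 5 settings shift the median of all genes to between -0.18 and -0.13. With 1 library left out MT1F ran from -0.46 to -0.27, and passed without MPM-1 replicate 2.

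The DEG rule leaves 1 higher and 1 lower metallothionein, 0 and 0 zinc genes, 0 and 0 copper genes, 0 lower glucocorticoid-responsive genes and 4 higher stress genes. Zinc genes were 2 higher and 7 lower with library-size scaling, 1 higher in all 4 limma fits, and 7 lower in limma without the filter. With 1 library left out they were 3 to 5 higher and 2 to 5 lower. Glucocorticoid-responsive genes were then 0 to 1 lower, stress genes 0 to 2 lower and copper genes 7 to 9 lower. Glucocorticoid-responsive genes were 2 lower in limma with a pseudocount of 1 and in limma without the filter. Except for MT1G under the count minimum, the cause was not tested. The family total had a log2 ratio of 0.43 from CPM and 0.24 from FPKM. A replicate block gave 0.84 for MT2A, 1.09 for MT1X, -0.93 for MT1E, -0.36 for MT1F, -2.85 for MT1G and -0.13 for MTF1, changing none of these calls. Same-numbered libraries correlated in their deviations at 0.021, 0.114 and -0.074. The highest value, 0.115, was that of DMSO replicate 1 with MPM-1 replicate 3, nearly the same as for the replicates numbered 2. Deviations from means of 3 libraries depend on one another, so these values cannot decide whether the numbers pair the samples. Depth was lowest for MT1G, at 3 to 8 counts in the MPM-1 libraries.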
